A study of Mus musculus with 6 samples.

Results

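Dense clusters of SALL4 sites were studied in mouse embryonic stem cells, where sites of this zinc-finger protein had been mapped by CUT&RUN, in which nuclease tethered to an antibody releases the DNA near the bound protein for sequencing. A cluster was a chain of SALL4 regions on chromosomes 1 to 19 in which each gap to the next region was under 5 kb and which held 5 or more regions. Of 36443 consensus regions on these chromosomes, 3275 (8.99%) fell into 506 clusters. A consensus region held an interval of both wild-type peak lists (overlap of at least 1 bp) and no interval of a knockout list, and 37997 such regions were found on all chromosomes.

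Wild type stands for a Sall4F/F line, whose Sall4 gene is floxed but intact, and the knockout for a Sall4-/- line. Culture was in 2i + LIF medium, which holds cells in a naive state, and each line gave 2 libraries with a SALL4 antibody (clone EE-30). The 2 IgG samples, 1 per line, were not used here. Each genotype is 1 line, so genotype and line cannot be told apart, and the labels do not say whether replicates came from separate cultures. After merging of overlapping lines, wild-type replicates 1 and 2 had 55058 and 48295 intervals. The knockout replicates had 34 and 39, and none lay in a consensus region by the rule.

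SALL4 is known to bind short A+T-rich sequence through its zinc fingers, to recruit the NuRD deacetylase complex, and to be needed in early embryos and for the balance between self-renewal and differentiation of stem cells. Runs of closely spaced sites bound by regulators are known from long enhancer stretches near genes of cell identity. The clusters were chosen by the positions of called intervals in the 2 genotypes, so their number and spacing are descriptions. No test was run on them. The strength and position of cluster regions are described beside the values for all other consensus regions. Counts of genes are set beside the shares over all coding genes or all genes. Motifs in promoters are set beside all promoters, and not beside promoters with a region outside a cluster.

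Of the listed genes described below, Jarid2 and Zfp57 had a cluster region on a promoter window, which is the stretch from 250 bases before to 50 bases after a transcription start. Jarid2 brings the polycomb repressive complex PRC2 to chromatin, and Zfp57 protects imprinted DNA methylation. Their promoters are shown with those of Stk38, Spag9, Cbx5 and H2bc22, chosen after their values were seen from among those with strong regions in both replicates. They are not the strongest as a set. The Gm32960 window, not shown, had fold enrichments over the local background of 33.1 and 31.3 in wild-type replicates 1 and 2. That of Gpr1, also not shown, had 15.8 and 14.3. The 250 bases before each start are given 5′ to 3′ from RefSeq (GRCm38.p6), with AATA and its reverse complement TATT, a tetranucleotide that SALL zinc fingers are known to prefer, in capitals.
Jarid2 (chr13:44730524-44730773, forward strand): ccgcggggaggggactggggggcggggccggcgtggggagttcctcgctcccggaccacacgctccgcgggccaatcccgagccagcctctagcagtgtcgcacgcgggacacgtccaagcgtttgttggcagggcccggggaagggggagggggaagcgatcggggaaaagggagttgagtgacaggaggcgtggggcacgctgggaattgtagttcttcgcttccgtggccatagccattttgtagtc
Zfp57 (chr17:37002275-37002524, forward strand): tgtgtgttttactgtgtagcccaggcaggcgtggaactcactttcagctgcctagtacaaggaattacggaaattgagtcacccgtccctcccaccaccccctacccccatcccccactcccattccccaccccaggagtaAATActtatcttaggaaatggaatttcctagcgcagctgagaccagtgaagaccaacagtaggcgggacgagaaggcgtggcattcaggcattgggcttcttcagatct
Stk38 (chr17:29007996-29008245, reverse strand): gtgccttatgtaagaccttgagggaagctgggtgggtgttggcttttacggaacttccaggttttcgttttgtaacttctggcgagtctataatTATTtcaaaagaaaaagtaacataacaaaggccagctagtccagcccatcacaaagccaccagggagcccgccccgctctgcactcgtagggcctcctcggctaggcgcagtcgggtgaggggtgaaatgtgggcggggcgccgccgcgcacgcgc
Spag9 (chr11:94043880-94044129, forward strand): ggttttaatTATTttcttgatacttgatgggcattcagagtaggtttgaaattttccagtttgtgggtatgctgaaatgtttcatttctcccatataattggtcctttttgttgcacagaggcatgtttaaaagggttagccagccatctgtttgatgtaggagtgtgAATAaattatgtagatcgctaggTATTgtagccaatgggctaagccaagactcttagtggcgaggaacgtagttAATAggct
Cbx5 (chr15:103239853-103240102, reverse strand): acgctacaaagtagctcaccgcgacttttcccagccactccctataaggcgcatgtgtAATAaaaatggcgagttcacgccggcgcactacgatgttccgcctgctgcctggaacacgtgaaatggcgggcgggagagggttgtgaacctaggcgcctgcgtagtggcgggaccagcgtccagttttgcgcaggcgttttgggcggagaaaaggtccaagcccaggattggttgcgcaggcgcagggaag
H2bc22 (chr13:21787238-21787487, forward strand): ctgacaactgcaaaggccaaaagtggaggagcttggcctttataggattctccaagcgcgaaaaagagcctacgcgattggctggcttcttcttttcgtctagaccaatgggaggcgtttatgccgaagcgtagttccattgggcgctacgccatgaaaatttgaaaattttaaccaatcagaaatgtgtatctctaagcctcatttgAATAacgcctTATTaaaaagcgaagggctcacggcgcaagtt

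The Jarid2 stretch held 0 matches to AATA on either strand, Zfp57, Stk38 and Cbx5 1 each, H2bc22 2 and Spag9 4. The A+T content ran from 32.8% in Jarid2 to 61.2% in Spag9. At the Spag9 promoter, which belongs to a scaffold protein of JNK signalling, the region covered all 250 bases, and its fold enrichment over the local background was 17.3 in wild-type replicate 1 and 15.1 in replicate 2. The Stk38 region, at a gene for a serine/threonine kinase, reached 20.95 and 18.7 and covered 197 of the 250 bases. Its summits lay at −214 and −332 bp from the start, so that of replicate 2 fell outside the bases shown. The Cbx5 region covered 224 bases, with 11.4 and 11.8. Cbx5 encodes a heterochromatin protein and shares this region with the promoter window of Hnrnpa1, a gene for an RNA-binding protein on the other strand. Its summits lay at −129 and −119 bp from the Hnrnpa1 start and at −416 and −426 bp from the Cbx5 start.

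The Jarid2 promoter region was among the weaker of those shown, with fold enrichments of 6.58 and 4.71 and summits at −45 and −32 bp from the start. The Zfp57 region had 4.82 and 6.80, with summits at −87 and −39 bp. The H2bc22 stretch lies between the starts of the histone genes H2bc22 and H2ac22, which point away from each other. Its region had 12.8 and 15.3, with summits at −97 and −81 bp from the H2bc22 start.

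In all, 64 promoter windows of 63 genes overlapped a cluster region. They are not all distinct sequences: Rbm14 and Gm21992 share a window, and divergent histone pairs such as H2ac22 and H2bc22 have windows that overlap over most of their length, so some matches are counted more than once. AATA or TATT occurred in 55 of these windows of 300 bases (85.9%), against 63.7% of all 31396 windows on chromosomes 1 to 19. The longer ATATT or its reverse complement AATAT, whose matches contain the shorter motif, occurred in 39.1% against 24.7%. CCAAT or ATTGG, which are not SALL-type motifs, occurred in 64.1% against 37.3%, and TATAAA or TTTATA in 28.1% against 13.6%. The median A+T content of the windows moved in the same direction, with 52.7% against 47.0%, and its part in the motif shares was not tested. Of the 64 windows, 17 belonged to histone genes and each of these held AATA or TATT, while 38 of the other 47 did (80.9%). Of all 63 histone gene windows, with or without a cluster, 57 held it (90.5%). TATAAA or TTTATA occurred in 14 of the 17 histone windows (82.4%) and in 8.51% of the other 47, and CCAAT or ATTGG in all 17 and in 51.1% of the other 47. ATATT or AATAT occurred in 52.9% and 34.0%. Over all 63 histone windows the shares were 54.0% for TATAAA, 82.5% for CCAAT and 30.2% for ATATT. The median A+T content was 59.0% in the 17 histone windows and 48.7% in the other 47. A match is a string of letters and not a shown binding site.

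The clusters were mostly small. The median cluster held 6 regions (quartiles 5 and 7, highest 18) and spanned 10.7 kb (quartiles 8.30 and 14.6 kb, range 3.16 to 44.4 kb). Of the 506 clusters, 229 held exactly 5 regions, and 557 runs of 4 regions lay just outside the rule. The largest gap within a cluster was 4998 bp and the smallest gap at the edge of one was 5011 bp. Within clusters the median gap was 1346 bp (quartiles 555 and 2580 bp), whereas the median gap between all neighbouring consensus regions was 15.9 kb and 30.8% of all gaps were under 5 kb. Regions covered 23.2% of the 6168 kb spanned, so most sequence inside a cluster lay between called regions.

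**Figure D1:**
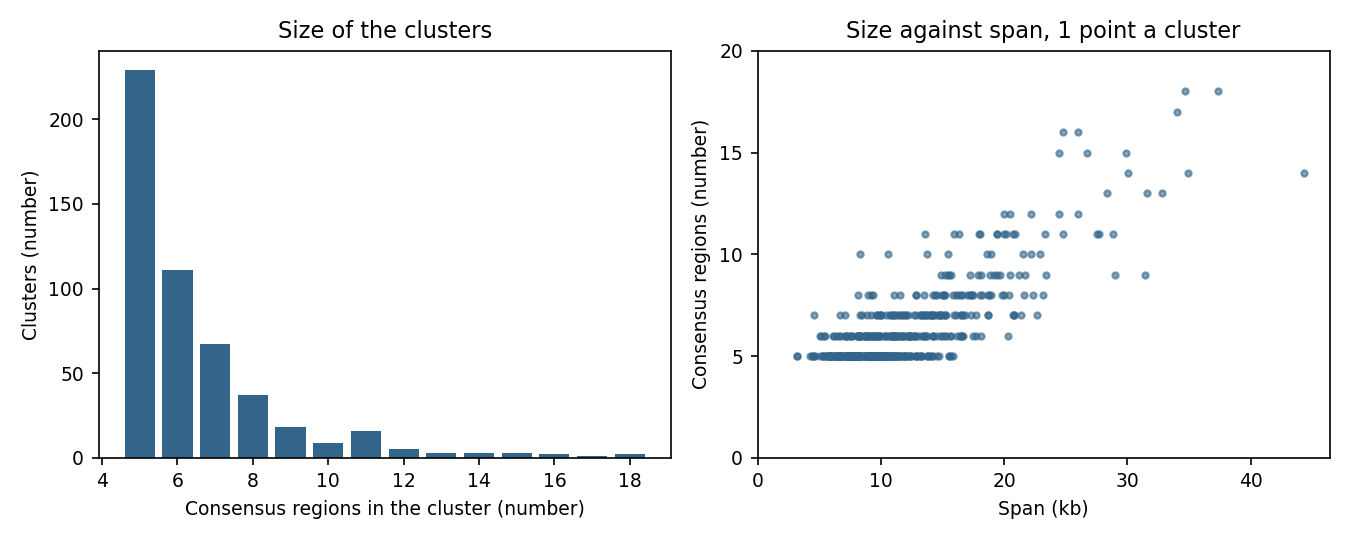
Left, bars give the number of clusters by the number of consensus regions in them. Right, each point is 1 of the 506 clusters, by its span in kb and its number of regions. The bar at 5 regions is the highest, with 229 clusters, and the cluster with the longest span, 44.4 kb, held 14 regions.

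The strength of the regions is the fold enrichment given by the authors' peak caller, used within each list. Regions in clusters had median fold enrichments of 7.58 and 6.80 in wild-type replicates 1 and 2, and the consensus regions outside had 7.11 and 6.54. The medians were the same for runs of 4 regions (7.58 and 6.80) and for clusters of 8 or more (7.58 and 6.80), and single regions had 6.89 and 6.12. Fold enrichments of at least 10 in both lists were found in 26.7% of cluster regions, 25.8% of regions in runs of 4 and 20.6% of all regions outside clusters. Cluster regions were also wider, with a median of 363 bp against 323 bp, and 9.40% against 4.95% reached 800 bp. The share of such wide regions was 8.30% in runs of 4, 7.98% in clusters of 5 to 7 and 12.7% in clusters of 8 or more.

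The depth behind a single region was small. The median summit rested on 12 and 11 fragments in clusters and on 11 and 10 outside, and the weakest summits of either wild-type list on 4. The local background recovered from the lists exceeded the lowest value of its list at 64.9% and 65.3% of the cluster summits and at 57.4% and 57.4% of the other summits. A raised background thus moved with clustering, and its part in it was not tested.

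A typical cluster mixed strong and weak regions. The ratio of the strongest to the weakest region had a median of 4.15 in replicate 1 and 3.94 in replicate 2, and ranged from 1.14 to 12.4 and from 1.27 to 12.4. In 394 of 506 clusters (77.9%) the same region was the strongest in both lists. A region with a fold enrichment of at least 10 in both lists was present in 422 clusters.

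The mean fold enrichment of a cluster was similar in the 2 replicates. It ranged from 4.47 to 18.4 (median 9.63) in replicate 1 and from 4.05 to 19.3 (median 8.71) in replicate 2. Across the 506 clusters the Spearman rank correlation was 0.917 and Pearson's r of the log2 values 0.913, a description without a p-value since all points come from the same 2 libraries. The log2 ratio of replicate 2 to replicate 1 had a median of −0.12 and an SD of 0.16. The number of regions in a cluster was nearly unrelated to its mean strength, with Spearman rank correlations of 0.0855 and 0.0668.

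**Figure D2:**
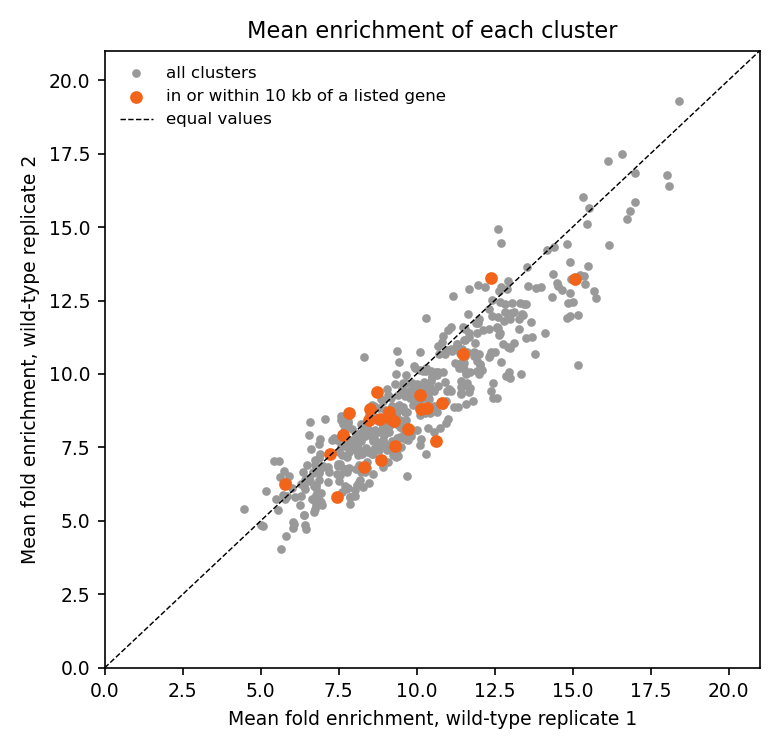
Each point is 1 of the 506 clusters, by its mean fold enrichment in wild-type replicate 1 and in replicate 2. Orange points are the clusters in or within 10 kb of a listed gene, and the dashed line marks equal values. The points follow the line, with 411 of 506 clusters higher in replicate 1.

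The replicates were also chained separately. The intervals of replicate 1 alone gave 1273 clusters, of which 712 (55.9%) overlapped a cluster built from replicate 2 alone. Replicate 2 alone gave 903, of which 715 (79.2%) overlapped one from replicate 1 alone. Inside the spans of the 506 clusters lay a further 458 intervals called in replicate 1 only, spread over 256 clusters, and 259 called in replicate 2 only, spread over 171.

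The largest clusters lay mainly inside genes. The 2 with 18 regions were at Gabrp, a subunit of the GABA-A receptor, and at Jarid2. The Gabrp cluster (chromosome 11, 33518503 to 33553215) had mean fold enrichments of 10.4 and 9.51. The next, with 17 regions over 34.0 kb, covered parts of Atf1, a transcription factor of the CREB family, and Tmprss12, with means of 8.55 and 7.97. Clusters of 16 lay in Epha4, an ephrin receptor kinase, and in Arhgap21, with means of 11.8 and 10.6 and of 10.7 and 8.70.

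Clusters of 15 regions lay in Ncor1, a nuclear receptor co-repressor, in the kinase gene Dclk2, and at the non-coding gene Gm34739, with means from 9.01 to 11.5 in replicate 1 and from 8.38 to 10.4 in replicate 2. Eif2s2, a translation initiation factor subunit, and Rtn4, a membrane protein of the endoplasmic reticulum, each had one of 14. A further cluster of 14 regions, on chromosome 13 and described below for its tRNA genes, tied with them and was left out of the first 10 for its longer span. The strongest regions in the 10 reached 17.2 to 33.7 in replicate 1 and 17.8 to 41.5 in replicate 2, and that in the tied cluster 13.1 and 13.6. Their cluster means all lay well inside the range over all clusters.

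Of the coding genes, 36 held more than 1 cluster and 10 held at least 3. Arid5b, which encodes a DNA-binding co-regulator, held 5 clusters with 36 regions. Epha4 held 4 with 41 of the 43 consensus regions in the gene, Jarid2 4 with 33 of 40, and Slc25a13, a mitochondrial aspartate-glutamate carrier, 4 with 28 of 35. Kat6b, a histone acetyltransferase, Baz2b, a bromodomain protein, Cnot2, a subunit of the CCR4-NOT complex, Glis3, a zinc-finger transcription factor, Rai14 and Etl4 held 3 each. The 4 clusters of Epha4 (chromosome 1, 77401420 to 77497245) had means of 9.17, 11.8, 11.6 and 7.69 in replicate 1 and 9.19, 10.6, 9.69 and 6.77 in replicate 2. Nearly all consensus regions of Epha4 thus belonged to a cluster.

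**Figure D3:**
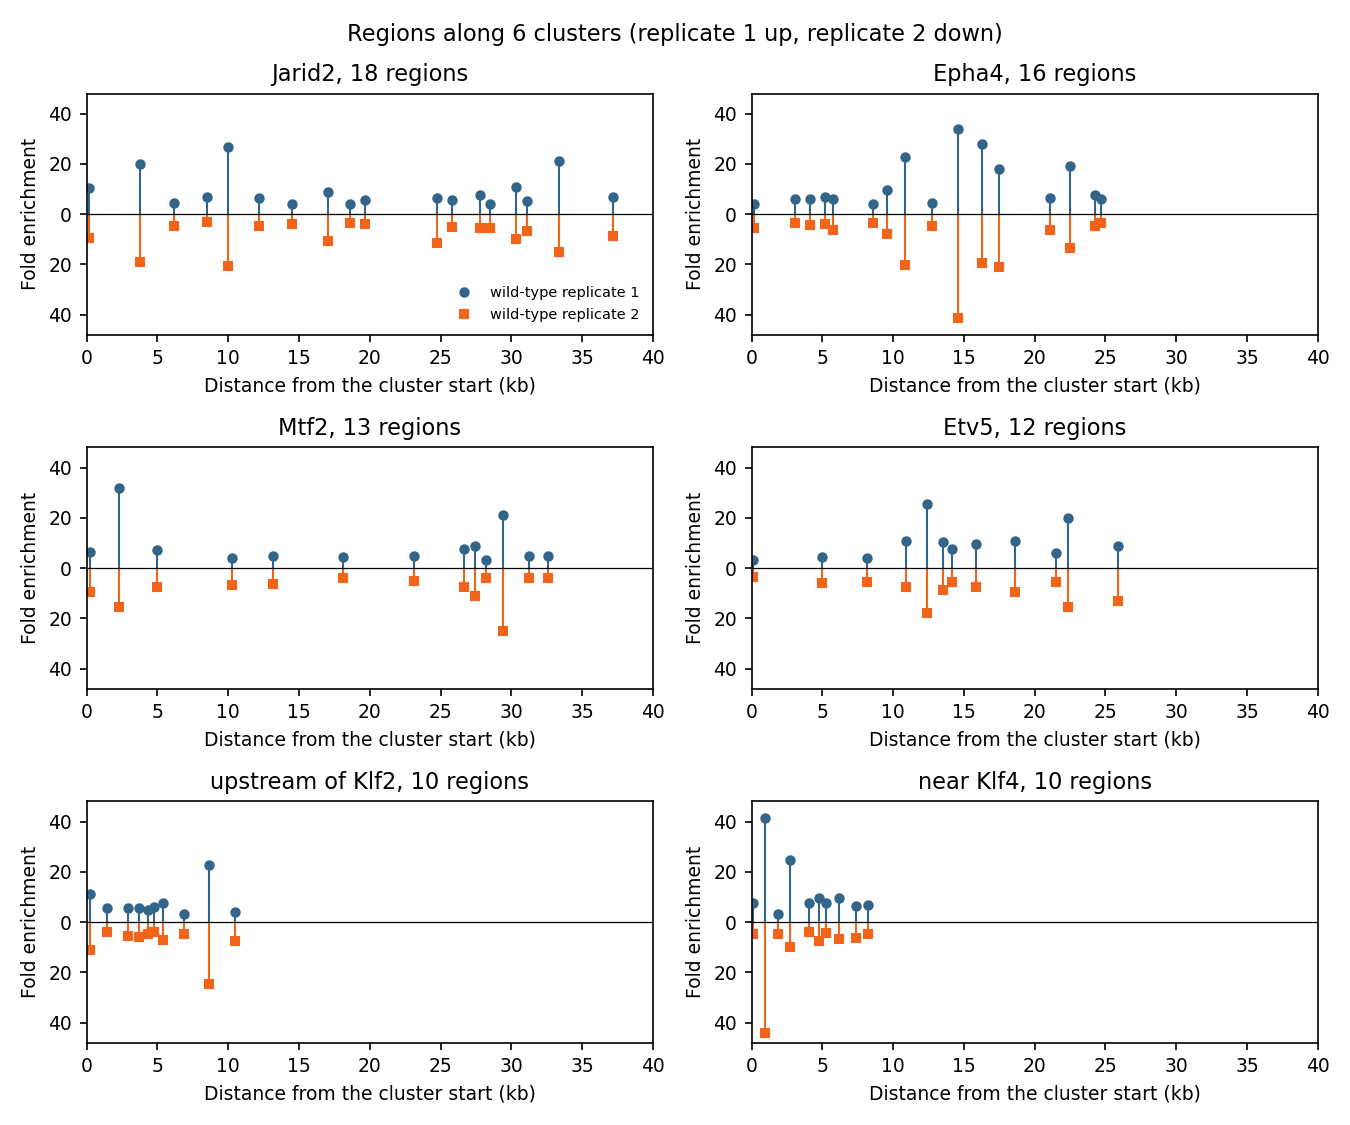
Each panel shows 1 cluster, with a stem for each consensus region at its distance in kb from the start of the cluster. The stem rises to the fold enrichment in wild-type replicate 1 and falls to that in replicate 2. The stems differ within each cluster, and the highest is 41.2 and 44.0 in the cluster near Klf4.

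The clusters with the highest means, ranked by the lower of the 2 replicate means, were at the non-coding gene D230017M19Rik (18.4 and 19.3), at Gm4325 (16.99 and 16.8), in Glis3 (18.0 and 16.8), 4.75 kb from the respiratory-chain gene Ndufs4 (16.6 and 17.5) and 6.86 kb from H2al2a (18.1 and 16.4). They held 5 to 8 regions. The regions within each cluster were uneven, with SDs over regions of 8.52 to 18.1. D230017M19Rik had the highest mean in both replicates. The order of the others differed between the replicates and is not resolved.

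The most tightly packed cluster held 5 regions in 3.16 kb of Arid5b (chromosome 10, 68126802 to 68129965), or 15.8 per 10 kb. The cluster near Gm14032 had 15.5 per 10 kb, that in Irak3, a gene of innate immune signalling, 15.3, and that in the RNA-binding protein gene Rbpms 11.8. The remaining one, with 12.0 per 10 kb, lay near Klf4 and is described below. Over all clusters the median was 5.42 regions per 10 kb.

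Genes were then set against the clusters. A coding gene was overlapped by 327 clusters (64.6%), and 230 lay wholly inside 1 coding gene. A further 63 overlapped other kinds of gene only, and 116 overlapped no annotated gene. In the other direction, 306 of 20665 coding genes overlapped a cluster (1.48%), as did 0.971% of genes of all types. Genes with a cluster were long, with a median length of 87.0 kb against 17.5 kb for all coding genes. The share rose with length, from 0.436% of genes under 10 kb to 6.57% of genes over 300 kb. The part of gene length in the counts of genes was not tested.

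The summits of cluster regions lay in coding genes in 54.6% of cases and those outside clusters in 49.1%. Promoter windows were overlapped by 1.66% of cluster regions and 2.41% of the others, and 3.88% against 4.59% of the summits lay within 1 kb of an end of a coding gene. The share of summits in coding genes was 47.9% for single regions, 49.3% for runs of 2, 50.2% for runs of 3 and 56.4% for runs of 4. Clusters of exactly 5 regions had 50.4% and those of 8 or more 54.6%, so the rise with size was not steady. Of 16457 coding genes with a promoter window, 45 had a cluster region on it (0.273%).

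Along coding genes of 30 kb or more, cluster summits were more frequent in the stretches nearer the start. The successive 20% stretches of the gene, from start to end, held 26.3%, 27.8%, 21.5%, 13.9% and 10.6% of 1342 cluster summits. For 11385 summits outside clusters the shares were 23.0%, 21.4%, 19.8%, 19.1% and 16.7%. Summits of 1 cluster share a gene and are not independent.

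**Figure D4:**
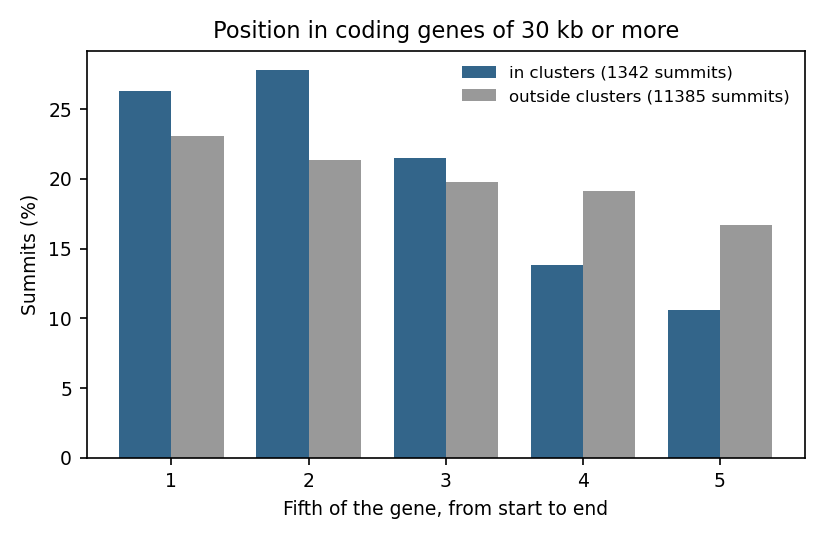
Bars give the percentage of summits in each successive stretch of 20% of the gene length, for coding genes of at least 30 kb, in clusters (blue) and outside (grey). In clusters the share was highest in the second stretch (27.8%) and lowest in the last (10.6%), and outside it fell from 23.0% to 16.7%.

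Known regulators were taken from 8 gene lists, of which 248 of 257 genes lie on chromosomes 1 to 19. Of the 33 pluripotency genes, 8 lay in or within 10 kb of a cluster (24.2%), against 2.03% of all coding genes by the same measure. Single SALL4 regions were also frequent near these genes, since 29 of 33 (87.9%) had a consensus region within 10 kb, against 43.0% of all coding genes and 80% of the signalling genes. The counts were 2 of 18 for formative and primed epiblast genes, 2 of 25 for chromatin regulators, 3 of 45 for signalling genes, 2 of 35 for mesoderm and endoderm genes and 2 of 47 for neural genes. No trophoblast or germ-cell gene (0 of 18) and no housekeeping gene (0 of 27) had one. Of the 8 pluripotency genes, Jarid2, Tet1, Tet2 and Zfp57 also act on chromatin or DNA methylation. Counted with the chromatin regulators, an alternative chosen after seeing the data, they leave 4 of 29 pluripotency genes (13.8%) and make 6 of 29 chromatin regulators (20.7%). The order of these lists thus depends on where the 4 genes are placed. The lists were written with results of these data known and were not tested against other genes. The pluripotency genes had a median length of 10.6 kb. Of the 8 with a cluster, Jarid2 (191 kb), Tet1 (82.9 kb), Tet2 (81.5 kb), Tfcp2l1 (57.2 kb) and Sall4 (18.9 kb) were longer than that. Zfp57 (9.57 kb), Klf2 (2.59 kb) and Dppa5a (1.15 kb) were shorter. The part of gene length in this share was not tested. By length, the share of all coding genes in or within 10 kb of a cluster ran from 0.994% under 10 kb to 7.13% over 300 kb.

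**Figure D5:**
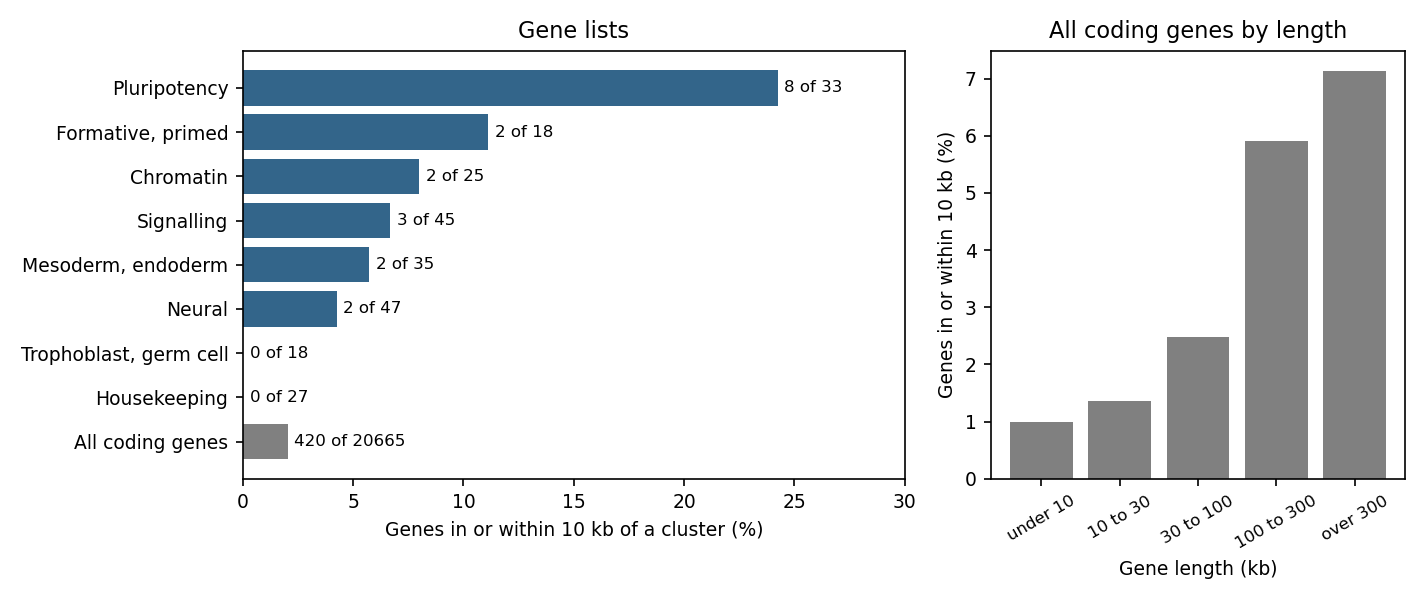
Left, bars give the percentage of each list in or within 10 kb of a cluster, with the number of genes beside it. Right, the same percentage is shown for all coding genes by gene length in kb. The pluripotency list has 24.2% as drawn, and 13.8% with Jarid2, Tet1, Tet2 and Zfp57 moved to the chromatin list, and all coding genes together have 2.03%.

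Among the pluripotency genes, Jarid2 stood out by number. Its cluster of 18 regions (chromosome 13, 44718547 to 44755870) ran from −12.2 to 25.1 kb relative to the start of the gene, with mean fold enrichments of 9.19 ± 6.59 and 8.46 ± 5.30 (SD over regions). The strongest region had 26.7 and 20.6, and the weakest 4.06 in replicate 1 and 3.28 in replicate 2. Clusters of 9, 5 and 6 regions followed inside the gene, and a cluster of 11 lay 19.3 kb from it on the upstream side.

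Klf2, a Krüppel-like factor of naive pluripotency, had 10 regions directly before its start (chromosome 8, 72307564 to 72318108), from −11.5 to −0.954 kb. In order of chromosome coordinate, as for all series of values here, their fold enrichments were 11.0, 5.51, 5.51, 5.59, 4.82, 6.08, 7.62, 3.44, 22.7 and 4.13 in replicate 1. In replicate 2 they were 11.1, 4.02, 5.44, 6.04, 4.76, 4.08, 7.04, 4.76, 24.5 and 7.48. The ninth region was far above the rest in both lists, and the other 9 rested on 4 to 15 fragments in replicate 1.

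Tet1 and Tet2 encode enzymes that oxidise methylated cytosine. Tet1 had 7 regions from −13.2 to −3.53 kb before its start and 6 inside the gene. From the region nearest the start outward, the first set had 5.13, 15.8, 9.13, 9.13, 14.96, 6.05 and 7.92 in replicate 1 and 3.84, 8.94, 5.46, 8.96, 16.5, 4.77 and 8.55 in replicate 2. The inner set was weaker, with ranges of 4.82 to 11.0 and 3.70 to 8.84. In Tet2 the 6 regions had 4.57, 10.7, 4.13, 4.82, 23.4 and 3.44 in replicate 1 and 6.004, 8.16, 4.08, 3.52, 27.1 and 4.08 in replicate 2, so 1 region dominated both lists.

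Tfcp2l1, a transcription factor of naive cells, had 5 regions across its start (−7.68 to 0.932 kb). Replicate 1 gave 5.08, 6.08, 22.9, 4.13 and 3.44, and replicate 2 gave 5.53, 5.34, 13.1, 6.12 and 4.08. The same region was the strongest in both lists, at different heights. This cluster was lost in 5 of 12 alternative settings. Zfp57 had 6 regions across its start with means of 8.87 and 7.07, and the cluster reached into the neighbouring H2-M5. Dppa5a, an RNA-binding protein of embryonic stem cells, lay in a cluster of 8 regions with means of 8.49 and 8.43.

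Sall4 itself held a cluster of 6 regions (chromosome 2, 168760953 to 168769780). Their fold enrichments were 13.7, 12.6, 18.4, 21.4, 14.7 and 9.65 in replicate 1 and 12.8, 11.2, 19.4, 18.4, 9.05 and 8.55 in replicate 2. All 6 were at or above 8.55 in both lists, and the means of 15.1 and 13.2 were above the medians over clusters of 9.63 and 8.71. A deleted stretch of Sall4 cannot give fragments in the knockout line, and which part is deleted was not analysed here.

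The epiblast genes with a cluster were Etv5, an ETS factor downstream of FGF signalling, and Cdh1, which encodes E-cadherin. The Etv5 cluster held 12 regions (chromosome 16, 22390465 to 22416480), 23.1 to 49.1 kb after the start of the gene. Its means were 10.1 ± 6.59 and 8.80 ± 4.47 (SD over regions), no interval called in 1 list only lay inside it, and its strongest region had 25.7 and 18.0. The Cdh1 cluster of 8 regions was lower, with means of 7.23 and 7.28.

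Chromatin regulators with a cluster were Mtf2, a polycomb-like subunit of PRC2, and Cbx7, a subunit of PRC1. Mtf2 had 9 regions before its start, ending at −0.603 kb, and 13 inside the gene (chromosome 5, 108074737 to 108107525). The means were 10.8 and 9.03 before the gene and 8.84 and 8.46 inside it. The inner cluster also held 10 intervals called in replicate 1 only and 4 called in replicate 2 only, and the region with the highest fold enrichment differed between the lists. Its second region had the most fragments in both (62 and 60), over backgrounds of 0.968 and 2.96, and fold enrichments of 32.0 and 15.4. The eleventh had 41 and 36 fragments and fold enrichments of 21.3 and 25.2. The cluster counted for Cbx7 lay 6.50 kb beyond its end, inside Apobec3.

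Of the signalling genes, Tcf7l1 and Tcf7l2 encode nuclear effectors of WNT signalling, and Bmp4 a secreted growth factor. Tcf7l1 held 9 regions with means of 8.72 and 9.38, and Tcf7l2 held 7 with means of 9.26 and 8.39. From the region nearest the start outward, the 5 regions before Bmp4 (−1.03 to −9.22 kb) were even in replicate 1, at 11.0, 10.3, 11.0, 9.64 and 9.64. In replicate 2 they were 5.44, 5.44, 12.2, 8.84 and 12.2, so the evenness did not recur.

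Lineage regulators with a cluster were Nfib (10 regions), Meis2 (6), Ebf1 (5) and Sall3 (5). Nfib, a nuclear factor I protein of neural development, had means of 10.1 and 9.29. Sall3, a relative of Sall4, had fold enrichments of 15.2, 4.13, 18.3, 13.7 and 10.7 in replicate 1 and 11.6, 4.08, 19.7, 18.4 and 12.6 in replicate 2. The second of its regions was the lowest in both lists. Meis2, a homeobox gene, had means of 9.30 and 7.54, and Ebf1, a helix-loop-helix factor, 7.84 and 8.66.

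Within 50 kb, 13 of 33 pluripotency genes (39.4%) had a cluster, against 4.06% of all coding genes. The further 5 were Klf4, Klf5, Nanog, Prdm14 and Sall1, and the 13 include Jarid2, Tet1, Tet2 and Zfp57. The shares were 16.7% for formative and primed genes, 12% for chromatin regulators and 8.89% for signalling genes. They were 5.71% for mesoderm and endoderm, 4.26% for neural, 0% for trophoblast and germ-cell and 3.70% for housekeeping genes. Besides Suz12, described below, Zic5, Bmpr1a and the housekeeping gene Polr2a gained a cluster at this distance. The Klf4 cluster (chromosome 4, 55474884 to 55483205) lay 43.9 kb beyond the end of this naive pluripotency factor. Its 10 regions had 7.58, 41.2, 3.44, 24.9, 7.58, 9.46, 7.62, 9.52, 6.35 and 6.89 in replicate 1. In replicate 2 they had 4.76, 44.0, 4.76, 9.84, 4.02, 7.34, 4.12, 6.88, 6.38 and 4.76. The second region was the strongest in both lists and the fourth the next strongest. The fourth had 48 and 38 fragments at its summits, over recovered backgrounds of 0.968 and 2.96.

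Nanog, a core pluripotency factor, had a cluster of 5 regions 46.4 kb beyond its end, inside the glucose transporter gene Slc2a3, with means of 15.8 and 12.6. Klf5 had clusters at 18.1 and 33.5 kb, with 8 and 6 regions and means of 11.5 and 10.4 and of 13.97 and 12.95. Prdm14, a regulator of germ-cell and naive identity, had 6 regions at 24.9 kb with 12.6 and 11.6. Sall1 had 11 regions at 10.7 kb with 11.4 and 9.75. Suz12, a core subunit of PRC2, had 11 regions at 11.7 kb on the upstream side, with 14.4 and 12.6. In each of these cases another annotated gene lay closer to the cluster.

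Histone genes on chromosome 13 formed a further group, which was chosen after its values were seen. Of 67 genes for replication-type histones, 20 overlapped a cluster (29.9%, beside 1.48% of all coding genes), and all 20 lay on chromosome 13, which holds 53 of the 67. A cluster region itself overlapped 16 of the genes, and any consensus region, in a cluster or not, overlapped 29 of the 67. The 20 genes sat in 6 clusters of 5 to 10 regions. These had means from 6.45 to 10.4 in replicate 1 and from 4.71 to 9.68 in replicate 2. The largest (21779384 to 21793115) covered H1f5, H3c11, H2ac22 and H2bc22. Of 62 histone genes with a promoter window, 17 had a cluster region on it (27.4%), beside 0.273% of all coding genes with a window. The replicates could differ, as at the shared promoter of H2ac8 and H2bc8 with 13.2 and 4.37. These genes are near-identical copies in places, and how reads with several possible positions were placed is not given in the sources used here, so the assignment to single copies is uncertain.

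Between the histone groups of that chromosome lay the cluster with the longest span, 44.4 kb (21896739 to 21941102). It spanned 16 tRNA genes, 10 of which were overlapped by one of its regions, and 9 of its 14 regions overlapped a tRNA gene. Its fold enrichments ran from 3.07 to 13.1 and from 3.02 to 13.6. A second such cluster, of 5 regions on chromosome 19 (12009409 to 12016804), covered 5 tRNA genes. Over all, 21 of 391 tRNA genes overlapped a cluster (5.37%, beside 0.971% of genes of all types), all in these 2 clusters, and the same limit on copies applies.

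Outside coding genes, the median distance of a cluster to the nearest coding gene was 18.6 kb, and 24 clusters lay more than 100 kb away. The farthest, 5 regions near Gm32985 on chromosome 1, was 1719 kb from Cntnap5a and had means of 12.99 and 10.9. Long non-coding RNA genes overlapped a cluster in 100 of 12408 cases (0.806%), beside 0.971% of genes of all types and 1.48% of coding genes.

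The chromosomes differed in the number of clusters. Chromosome 11 had 3.20 clusters per 10 Mb and chromosome 7 had 0.917, the extremes among the 19. The density of all consensus regions was also highest on chromosome 11 (20.6 per Mb) and lowest on chromosome 7 (12.6 per Mb). The share of consensus regions that fell into clusters was 10.8% on chromosome 11 and 4.42% on chromosome 7.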

How the data were processed

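CUT&RUN peak lists of 4 SALL4 libraries (2 per line) were used. Per the submitters' processing notes, the tools were Trim Galore 0.6.0, cutadapt 1.18, FastQC 0.11.8, BWA 0.7.17 and MACS2 2.1.1.20160309, with GRCm38/mm10 as the build. Settings and the placement of reads with several positions are not given in the sources used here. The authors deposited 1 list per sample, with a fold enrichment (a ratio to a local background), −log10 p-values and −log10 q-values, a summit offset and a score derived from the −log10 q-value.

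Overlapping lines of a list were joined into intervals that took the values of the line with the highest fold enrichment. Summit pileups and backgrounds were recovered from fold enrichment and p-value (pseudocount 1, tolerance 0.0001 in −log10 p) for 100% of the lines. The chaining and the recovery were checked on simulated data. Gene positions, types and promoter windows came from RefSeq tables (GRCm38.p6), and starts are the outermost in the promoter table. The clusters named were the 10 with most regions, the 5 each with the longest span, the highest mean and the densest packing, and those within 10 kb of listed genes. Histone, tRNA and microRNA genes, the genes named within 50 kb and the promoters beyond Jarid2 and Zfp57 were chosen after their values were seen. The members and lists were chosen with earlier results of these data known. Samples were grouped by their titles. The deposited lists hold no read totals, so the depth is unknown beyond the recovered pileups. Alternatives covered the gap, the number of regions, the q-value, the overlap, the chromosomes, the distance to genes, the gene types and each replicate left out. Python 3.11.15, numpy 2.4.6, scipy 1.17.1, pandas 2.3.3 and matplotlib 3.10.9 were used.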

Additional observations from a re-analysis of the deposited data

How the results depend on the processing

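The number of clusters followed the rule closely. It was 506 as reported, 208 with gaps under 2.5 kb, 1014 with gaps under 10 kb, 1063 with 4 or more regions, 99 with 8 or more, 17 with a strict q-value (−log10 of 10 or more), 304 when intervals shared 50% of each other and 320 with summits within 100 bp. The share of consensus regions in clusters, 8.99%, was in the same order 3.405%, 19.9%, 15.1%, 2.73%, 0.840%, 6.04% and 6.34%. The median span of 10.7 kb was 7.56 kb, 19.4 kb, 8.39 kb and 18.9 kb with the other gaps and numbers of regions, 13.6 kb at the strict q-value and 11.0 kb with the 50% overlap. The share of clusters overlapping a coding gene, 64.6%, was 62.0% with gaps under 2.5 kb, 67.95% with gaps under 10 kb, 69.7% with 8 or more regions, 52.9% at the strict q-value, 66.8% with the 50% overlap, 66.9% with close summits, 63.6% with X and Y added and 77.1% with all annotated genes. The ratio of median fold enrichment inside clusters to outside, 1.05, stayed above 1 under the 12 alternatives and was 1.10 at the strict q-value and 1.12 with the 50% overlap. The number of listed genes with a cluster, 19 without the housekeeping genes, was 12 and 33 with gaps under 2.5 and 10 kb, 32 with 4 or more regions, 8 with 8 or more, 13 with the 50% overlap, 15 with close summits and 2 at the strict q-value, namely Etv5 and Sall4. Etv5 had a cluster in all 12 settings of the rule, Tfcp2l1 in 7, and Bmp4, Sall3 and Tet2 in 8. Tfcp2l1 lost it with gaps under 2.5 kb, 8 or more regions, the strict q-value, the 50% overlap and close summits. With 1 replicate left out, the lists ranged from 506 to 1273 clusters, from 8.99% to 16.84% of regions, from 10.2 to 10.7 kb in span, from 64.6% to 67.2% in coding genes, from 1.05 to 1.085 in the ratio, and from 19 to 38 listed genes. Without a wild-type replicate the need for a second list is dropped by construction. That gave 903 clusters without wild-type replicate 1 and 1273 without wild-type replicate 2, with 28 and 38 listed genes. No paired analysis was possible because each result is a count or share from the lists of both genotypes together, with no fitted test to which a replicate block could be added.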

Other observations

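At a −log10 q of at least 10 in both lists, 17 clusters remained. Each overlapped 1 of the 506 reported clusters. Besides Etv5 and Sall4 they lay in Epha4, in Enah, a regulator of actin filaments, in Etnk1, an ethanolamine kinase, in Ifitm1, an interferon-induced membrane protein, and in Ccdc170, Clybl and Morc1, the last of which silences retrotransposons in the germ line. The strict cluster in Epha4 held 6 regions over 13.6 kb with mean fold enrichments of 21.9 and 20.7. That in Ccdc170 held the most regions, 7 over 17.3 kb, with means of 14.4 and 14.3. The others lay in or nearest to H2al2a, Gm34739, 5031425E22Rik, A830035A12Rik, Gm26296, Gm41432, Gm29960 and Gm22788, with means from 12.9 to 25.7 in replicate 1 and from 12.95 to 22.6 in replicate 2. This setting keeps strong regions by construction.

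The microRNA gene Mirlet7g, of the let-7 family that counteracts the stem-cell state, lay in the span of a cluster of 7 regions at Wdr82 but under none of its regions. Mir6352 lay under a region of the fourth cluster of Epha4. In all, 6 of 1136 microRNA genes lay in the span of a cluster (0.528%), below the 0.971% of genes of all types.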
